A study of Mus musculus with 98 samples.

Results

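Solute carriers are membrane proteins that move amino acids, sugars, metals, ions, vitamins and organic acids across the plasma membrane and the membranes of mitochondria, lysosomes and the Golgi apparatus. The genes are named Slc, a family number, a letter and a member number, and a family groups proteins that are related in sequence. In leukocytes these carriers set the supply of leucine, glutamine and glucose on activation, load mitochondria with phosphate, iron and nucleotides, and export the products of lysosomal digestion. Some act in pairs: Slc3a2 encodes the heavy chain that brings the light chain Slc7a5 to the plasma membrane, and monocarboxylate carriers need the partner proteins Bsg or Emb.

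The genes described here are those whose probe sets carry a single symbol of the form Slc plus a digit. The genes Slc40a1, Slc11a1, Slc11a2, Slc4a1, Slc2a1, Slc7a11 and Slc15a3 were set aside. Of 262 such symbols, 255 remained, with 405 probe sets. They were sorted into classes by family number alone, so a class can hold members that carry something other than its name says. A gene entered the comparisons in a tissue where its mean log2(intensity + 16) lay above that tissue's 30th percentile. This held for 182 genes in blood and 166 in spleen, of which 143 were above in both and 50 in neither. The mean runs over all arrays of a tissue, and Slc12a8 and Slc22a19 lay at the lowest deposited value in all 12 LPS spleen arrays. They were not called there, and the other 164 of the 166 had a level above it in at least 1 array. At the edge of the threshold of 6.854 in blood, Slc30a6 lay just inside at 6.862 and Slc8a3 just outside at 6.848. In spleen, with a threshold of 6.352, Slc22a22 lay inside at 6.357 and Slc39a7 outside at 6.342. Genes were thus chosen by their mean level over all arrays of a tissue, and the rule uses no difference between c and x.

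The arrays, of an Affymetrix mouse design, measured RNA of blood leukocytes (64 arrays) and spleen (34 arrays) in 3 models. Mice had a burn, trauma-hemorrhage (TH) or an infusion of LPS, the lipopolysaccharide of Gram-negative bacteria. Each model and tissue forms a set of arrays. Titles carry a c or an x whose meaning is nowhere stated, so x is compared with c as coded. Blood titles also carry a letter, E for injury or infusion and A for sham treatment, whereas all spleen titles carry E. Burn blood comprised 11 c arrays (5 A, 6 E) and 9 x arrays (4 A, 5 E). LPS blood comprised 12 c arrays (6 per letter) and 10 x arrays (5 per letter), and TH blood 11 of each code (5 A, 6 E). Spleen sets comprised 5 c and 6 x arrays for burn (labelled as spleen leukocytes), 6 and 6 for LPS, and 6 c and 5 x for TH. Titles of the LPS spleen arrays carry an unexplained v2 mark and array numbers far from those of all other arrays, so contrasts with LPS spleen cannot be told apart from what that mark stands for. Strain, sex, age, dose and sampling time are not stated, nor whether each array stands for its own animal. The p-values therefore measure only the spread between these arrays, which may be technical.

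Several properties of the arrays moved with the code. RNA quality was read from the beta-actin controls, as the log2 ratio of their 3' over their 5' probe set. This beta-actin ratio ran from 0.94 to 1.27 in the x arrays of LPS blood and from 1.49 to 1.65 in its c arrays. In TH blood it ran from 0.97 to 1.65 in x and from 1.79 to 2.28 in c, and in the other 4 sets the codes overlapped. Code and ratio therefore cannot be told apart in LPS and TH blood, and a fit with the ratio as a covariate does not separate them. In burn blood, 2 c arrays of letter E (replicates 4 and 5) stood apart from the rest of their group. In burn spleen and TH spleen each code has its own run of title numbers, so code and run cannot be told apart there. Median intensities differed between sets, so levels are compared only within a set.

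Between 3.01% and 53.3% of the carriers measured in a set were called, that is, differed between x and c at limma's adjusted p of 0.05. In burn blood 11 were higher and 10 lower in x of 182 (11.5%, against 19.2% of all 10247 genes tested, 7.83% higher and 11.4% lower). In LPS blood 25 were higher and 21 lower (25.3%, against 27.4% of genes, 13.8% higher and 13.6% lower). In TH blood 21 were higher and 76 lower (53.3%, against 54.2%, 21.4% higher and 32.8% lower), and the median difference was -0.09 log2 for the carriers and -0.05 for all genes. Lower calls thus outnumbered higher calls in TH blood among the carriers and among all genes. In burn spleen 12 were higher and 13 lower of 166 (15.1%, against 19.03%, 9.92% higher and 9.11% lower), and in LPS spleen 2 were higher and 3 lower (3.01%, against 4.02%, 2.86% higher and 1.16% lower). In TH spleen 13 were higher and 29 lower (25.3%, against 29.95%, 11.5% higher and 18.4% lower). The share of carriers called lay below the share of all genes in each set, and the difference between these shares was not tested. The c and x arrays did not overlap at all for 3, 2 and 10 carriers in burn, LPS and TH blood (1.47%, 1.63% and 3.96% of all genes). In burn, LPS and TH spleen this held for 13, 5 and 22 carriers (11.6%, 3.18% and 18.5% of all genes).

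**Figure D1:**
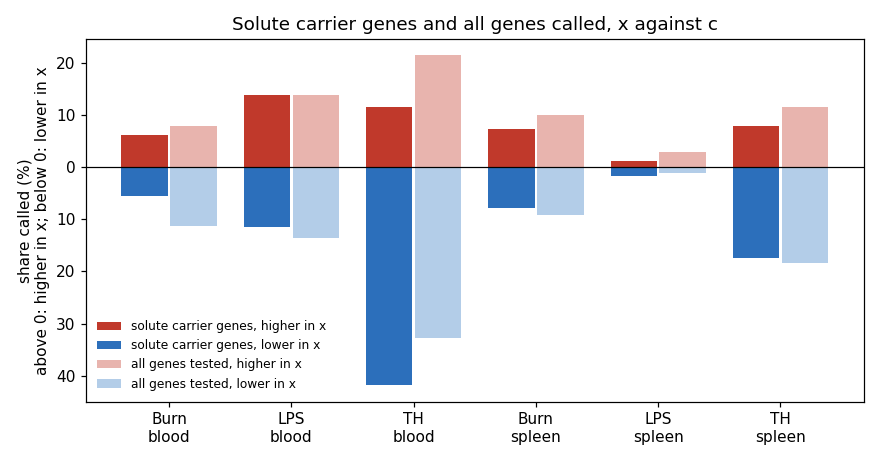
Share of genes called at an adjusted p of 0.05 (y axis, percent) in each of the 6 sets, with genes higher in x above 0 and genes lower in x below 0. Dark bars are the solute carrier genes (182 in blood, 166 in spleen) and pale bars all 10247 genes tested, and the bar of lower calls in TH blood is the longest for both.

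These counts depended on the arrays and the scaling in some sets. In TH blood the split was 34 higher and 57 lower when arrays were only shifted to a common median, and 32 and 56 with the values as deposited. In burn spleen it was 14 and 9 after median scaling, and in LPS spleen 2 and 2 under both of these scalings. With the beta-actin ratio as a covariate limma called 28 carriers in LPS blood and 0 in TH blood, where 15 passed an unadjusted p of 0.05 and 12 of all 10247 genes were called. In burn blood 30 were called without the 2 arrays that stood apart, 35 with array weights and 3 in letter E alone. Of the burn blood calls recomputed by name in letter E alone, which has fewer arrays, those of Slc15a4 and Slc38a2 were kept. The calls of Slc9a3r1, Slc27a4, Slc25a20, Slc7a5, Slc30a5, Slc25a4, Slc50a1, Slc1a5, Slc46a3, Slc3a2, Slc4a3, Slc30a6, Slc5a9, Slc35c1 and Slc23a2 were lost there, with the direction kept.

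Over the 6 sets, 146 of 205 carriers were called at least once, or 71.2%, against 72.9% of the 11746 genes tested in either tissue. They were higher each time for 30 carriers (14.6%, against 18.9% of genes), lower each time for 81 (39.5%, against 34.1%) and called in both directions for 35 (17.1%, against 19.96%). Much of the lower side came from TH blood, with its 76 lower calls. Of the 143 measured in all 6, 32 were called in both directions, against 25.2% of 8748 genes measured in both tissues. In 3 or more sets 5 carriers were called higher (Slc25a20, Slc25a36, Slc39a1, Slc7a5 and Slc9a8; 6.13% of genes) and 8 lower (5.66% of genes). By limma 0 carriers were called higher in 4 or more sets, against 2.47% of genes (0.869% in 5 or more), and 2 were called lower in 4 or more (Slc46a3 and Slc12a2), against 1.53%. Slc46a3 was the single carrier called lower in 5 sets, against 0.229% of genes.

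The lysosomal carriers Slc15a4 and Slc46a3 were both lower in x in burn blood, burn spleen and TH spleen. Slc15a4 exports histidine and small peptides from lysosomes and is known for its need in signalling by endosomal Toll-like receptors. In burn spleen its 5 c arrays had log2 levels of 8.09, 8.49, 8.20, 8.23 and 8.47, and its 6 x arrays ran from 7.36 to 7.71 with a median of 7.43. In TH spleen the 5 x arrays read 7.40, 7.75, 7.48, 7.12 and 7.24, and the 6 c arrays ran from 8.09 to 8.79 with a median of 8.50. The codes did not overlap in either spleen set, and every x array lay below every c array. Slc15a4 fell by 0.83 ± 0.09 log2 (SE, adjusted p = 6.7e-06) in burn spleen and by 1.11 ± 0.13 (adjusted p = 1.4e-05) in TH spleen, or 2.16-fold. In LPS spleen its x minus c was 0.04 ± 0.14 (adjusted p = 0.986).

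In burn blood the 11 c arrays of Slc15a4 ran from 6.90 to 7.74 log2 (median 7.56) and the 9 x arrays from 6.46 to 6.93 (median 6.65). All 9 x arrays lay below the c mean (in blood, here and later, that of their own letter), and 1 c array and 1 x array lay in the range of the other code. The difference was -0.79 ± 0.07 log2 (adjusted p = 1.3e-07), and -0.84 without the 2 arrays that stood apart. In LPS blood Slc15a4 was 0.27 ± 0.08 higher in x (adjusted p = 0.00842), with 9 of 10 x arrays above the c mean, and in TH blood its difference of 0.15 ± 0.08 did not pass (adjusted p = 0.107). The gap in x minus c between burn and LPS blood was -1.06 ± 0.11 log2 (adjusted p = 5.7e-11), that between TH and burn blood 0.94 ± 0.11 (adjusted p = 7.7e-10), and that between TH and LPS spleen -1.16 ± 0.18 (adjusted p = 1.3e-05).

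Slc46a3, a carrier of the lysosomal membrane from a family related to the folate carrier, was lower in 5 sets. Its log2 levels in burn spleen were 8.70, 8.34, 8.71, 8.53 and 8.63 in c and ran from 7.67 to 8.03 (median 7.81) in x, without overlap. In TH spleen they were 7.91, 7.84, 7.78, 7.69 and 7.49 in x and ran from 8.06 to 8.65 (median 8.47) in c, again without overlap. The differences were -0.75 ± 0.09 (adjusted p = 1.4e-05) and -0.66 ± 0.11 (adjusted p = 3.0e-04). In the blood sets the codes overlapped, with differences of -0.39 ± 0.09 in TH blood (adjusted p = 0.00116, all 11 x arrays below the c mean) and -0.26 ± 0.08 in burn blood (adjusted p = 0.0281, 8 of 9). In LPS spleen the value was -0.36 ± 0.09 (adjusted p = 0.0469), and in LPS blood -0.02 ± 0.05 (adjusted p = 0.832). In LPS spleen the call was lost on leaving out any of 9 of the 12 arrays (c replicates 1, 3, 4, 5 and 6, x replicates 1, 2, 3 and 6), with adjusted p from 0.0298 to 0.110 over all 12. In burn blood it was lost without c replicate 2 of letter A (0.0505), x replicate 2 of letter A (0.0762) or x replicate 1 of letter E (0.0554), and in TH blood the value was -0.02 with the beta-actin ratio as a covariate.

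B cell markers were lower in several sets, including the 3 in which Slc15a4 was lower. Of the measured markers, 10 of 12 were lower in burn blood, 9 of 13 in burn spleen and 8 of 13 in TH spleen, with median differences of -0.93, -0.33 and -0.33 log2. Their summed intensity ran from 22200 to 24400 in c and 16300 to 18700 in x of burn spleen, and from 20100 to 23000 in c and 12800 to 16900 in x of TH spleen. In burn blood the sums were 6230 to 15400 in c and 4850 to 6680 in x. In TH blood, where Slc15a4 was not called, 4 of 12 were lower, with a median of -0.28 and sums of 4240 to 9190 in c and 3030 to 5480 in x. In LPS spleen 2 of 13 were lower, and in LPS blood 2 of 12 were lower and 1 higher. Monocyte and macrophage markers were lower for 11 of 13 genes and higher for 1 in burn spleen, with sums of 5490 to 8650 in c and 4790 to 5640 in x, and lower for 5 and higher for 2 in TH spleen, with sums of 4520 to 6280 and 4770 to 8320. T cell markers were higher for 8 of 14 genes in burn spleen (median 0.38, sums of 4440 to 6810 in c and 7290 to 9120 in x) and lower for 9 of 14 in TH spleen (median -0.42, 5800 to 7050 and 4320 to 5260). NK cell markers were lower for 3 of 6 genes in burn spleen and 4 of 6 in TH spleen, with 1 higher. No marker of these lists was at the lowest deposited value in all arrays of a set. The part of cell composition in the carriers' differences was not tested, and in such mixed samples fewer cells of a type and less RNA per cell cannot be told apart.

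The promoters of these carriers and of the metal carriers Slc39a1 and Slc41a1 are shown because the members of each pair moved together in some sets. Each window holds 250 bases before and 50 after the start in RefSeq's table (GRCm38.p6), 5' to 3' along the gene, with motif matches on either strand in capitals. The motifs searched, chosen with the sequences in view, were CCAAT (the box bound by NF-Y), CACGTG (the lysosomal gene and E-box core), TGATGNAA (the amino acid response element) and GGGNNTTCC (an NF-kappaB type site). Matches can overlap each other.

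Slc15a4, chr5:127617343-127617642, minus strand: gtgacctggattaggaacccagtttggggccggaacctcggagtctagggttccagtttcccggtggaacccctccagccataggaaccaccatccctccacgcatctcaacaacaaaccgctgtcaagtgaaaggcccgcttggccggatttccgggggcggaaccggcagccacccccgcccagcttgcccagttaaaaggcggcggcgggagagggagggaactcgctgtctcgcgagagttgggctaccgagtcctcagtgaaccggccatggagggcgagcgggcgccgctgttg

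Slc46a3, chr5:147894766-147895065, minus strand: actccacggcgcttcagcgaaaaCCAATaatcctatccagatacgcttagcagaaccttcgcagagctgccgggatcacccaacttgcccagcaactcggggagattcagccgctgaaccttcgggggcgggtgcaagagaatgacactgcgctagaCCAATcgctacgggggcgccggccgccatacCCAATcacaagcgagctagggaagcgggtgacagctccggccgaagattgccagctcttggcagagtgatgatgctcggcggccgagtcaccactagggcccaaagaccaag

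Slc39a1, chr3:90247942-90248241, plus strand: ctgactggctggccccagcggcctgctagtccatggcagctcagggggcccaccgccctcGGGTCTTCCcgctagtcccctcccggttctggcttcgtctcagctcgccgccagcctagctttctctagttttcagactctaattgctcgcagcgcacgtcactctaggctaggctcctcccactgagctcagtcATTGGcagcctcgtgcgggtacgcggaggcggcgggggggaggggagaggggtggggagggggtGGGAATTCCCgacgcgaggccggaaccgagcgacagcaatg

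Slc41a1, chr1:131827762-131828061, plus strand: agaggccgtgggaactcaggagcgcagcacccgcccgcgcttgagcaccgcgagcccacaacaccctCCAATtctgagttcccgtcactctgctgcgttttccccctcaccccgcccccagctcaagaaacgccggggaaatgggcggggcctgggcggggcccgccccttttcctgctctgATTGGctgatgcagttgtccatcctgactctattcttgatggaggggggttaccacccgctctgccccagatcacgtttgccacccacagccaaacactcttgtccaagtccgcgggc

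Slc46a3 held 3 CCAAT matches, Slc41a1 2, Slc39a1 1 and Slc15a4 0, against 37.9% of all 27025 promoters of that length with at least 1 match. Slc39a1 held 3 GGGNNTTCC matches, of which 2 overlap on opposite strands, against 5.72% of promoters with a match. Neither CACGTG (7.24% of promoters) nor TGATGNAA (4.06%) occurred in the 4 windows. Of the 164 carriers with a promoter in the table, 60 held CCAAT (36.6%), 18 CACGTG (11%), 5 TGATGNAA (3.05%) and 8 GGGNNTTCC (4.88%). A match describes letters in a window and was not tested for binding.

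Among the amino acid carriers, Slc7a5 had the largest called difference of any carrier in any set. It encodes the light chain of LAT1, which brings leucine and other large neutral amino acids into cells. In TH spleen its 5 x arrays had log2 levels of 7.83, 7.62, 7.35, 7.70 and 6.96, while the 6 c arrays ran from 6.10 to 6.48 with a median of 6.23. The codes did not overlap, and the difference was 1.24 ± 0.13 (2.36-fold, adjusted p = 5.9e-06). Slc7a5 was also higher in x in burn blood (0.30 ± 0.07, adjusted p = 0.00217, 9 of 9 x arrays above the c mean) and LPS blood (0.48 ± 0.10, adjusted p = 9.0e-04, 10 of 10). In TH blood it was lower instead, by -0.48 ± 0.14 (adjusted p = 0.00729), with c arrays from 8.93 to 9.79 and x arrays from 8.27 to 9.64. In burn and LPS spleen its differences of 0.22 and 0.25 did not pass (adjusted p = 0.0646 and 0.230), although all 6 x arrays lay above the c mean in each. The contrast between the tissues in TH, on letter E, was -1.91 ± 0.21 log2 (adjusted p = 6.8e-07), from -0.68 in blood to 1.24 in spleen. In spleen, x minus c in TH exceeded that in LPS by 0.99 ± 0.15 and that in burn by 1.02 ± 0.15 (adjusted p = 7.7e-06 and 3.0e-06).

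In burn blood 2 further genes of neutral amino acid uptake were higher beside Slc7a5. Slc38a2, the sodium-coupled carrier SNAT2, ran from 9.49 to 10.10 log2 (median 9.78) in c and from 10.16 to 10.62 (median 10.28) in x, without overlap. Its difference was 0.54 ± 0.07 (adjusted p = 1.5e-05). Slc3a2, the heavy chain partner of Slc7a5, was 0.25 ± 0.05 higher (adjusted p = 0.00175). The glutamine carrier Slc1a5 was lower by -0.34 ± 0.09 (adjusted p = 0.00722). The class of 28 had 3 higher and 2 lower members (7.83% and 11.4% of all genes). Neutrophil markers were higher for 8 of 15 genes in burn blood, with sums of 7580 to 66700 in c and 24900 to 38800 in x, and their part was not tested.

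In TH blood 12 of 28 amino acid carriers were lower and 1 higher, where 32.8% of all genes were lower, among them the glycine carrier Slc6a9 (c from 8.97 to 9.74, x from 8.29 to 8.91 log2, difference -0.72 ± 0.10, adjusted p = 6.6e-06). The creatine carrier Slc6a8 fell by 0.40 ± 0.05 there (adjusted p = 5.5e-06), while a further probe set of it gave 0.01. In LPS blood 5 were higher and 2 lower (13.8% and 13.6% of all genes). Slc3a1, a heavy chain of the cystine carrier, stood there at 0.33 ± 0.05 (adjusted p = 7.1e-05, against -0.45 ± 0.07 in TH blood, adjusted p = 2.1e-05). The serotonin carrier Slc6a4 stood at 0.38 ± 0.10 in LPS blood (adjusted p = 0.00633). Platelets take up serotonin, and 6 of 9 platelet markers were also higher in LPS blood, with sums of 13900 to 20500 in c and 17800 to 23200 in x, whose part in the result was not tested. With the beta-actin ratio as a covariate Slc6a4 stood at -0.03. In burn spleen 6 of 23 were lower and 0 higher by limma (9.11% and 9.92% of all genes). Slc66a1, which exports cationic amino acids from lysosomes, stood there at -0.44 ± 0.10 (adjusted p = 0.00521, and -0.31 in TH spleen). The light chain Slc7a7 stood at -0.33 ± 0.08 in burn spleen (adjusted p = 0.00734). At an unadjusted p under 0.05, 1 of the 23 were higher. In TH spleen the sodium-coupled carrier Slc38a1 was lower by -0.44 ± 0.08 (adjusted p = 4.2e-04), as it was in burn blood (-0.24 ± 0.05, adjusted p = 0.00190). The class had 2 higher and 3 lower of 23 members in TH spleen (11.5% and 18.4% of all genes). In LPS spleen Slc66a2 was lower (-0.24 ± 0.06, adjusted p = 0.0302), a call lost without any of 9 of the 12 arrays, c replicates 2 to 5 and x replicates 1 to 4 and 6 (adjusted p from 0.0202 to 0.0736 over all 12). Genes of the amino acid stress response, which includes targets and regulators of Atf4, were called 4 higher and 0 lower of 13 in burn blood, 2 and 0 of 13 in LPS blood, and 3 higher and 6 lower in TH blood. In burn, LPS and TH spleen the counts were 2 and 2, 1 and 0, and 3 and 2 of 17. Cebpb, a transcription factor on that list, was higher in burn blood (1.33 ± 0.24, adjusted p = 4.3e-04) and TH spleen (1.63 ± 0.17, adjusted p = 4.9e-06). It was also higher in LPS blood (1.28 ± 0.17, adjusted p = 1.1e-05). The same held in burn spleen (1.64 ± 0.15, adjusted p = 1.3e-06) and LPS spleen (0.98 ± 0.23, adjusted p = 0.0287), where Slc7a5 was not called. Other genes of the list differed from Cebpb. In burn blood Ddit4, Ddit3 and Atf3 were also higher. Atf4 (0.09, adjusted p = 0.270), Asns (0.02, 0.889), Phgdh (-0.10, 0.621) and Trib3 (-0.02, 0.639) were not called there. In burn spleen Ddit4 was higher too, and Sesn2 (-0.29, adjusted p = 0.0315) and Aldh18a1 (-0.26, 0.0211) were lower.

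Among the sugar carriers, Slc2a3, the high-affinity glucose carrier GLUT3, was 2.09-fold higher in x in LPS blood. Its 12 c arrays ran from 10.21 to 11.05 log2 (median 10.50) and its 10 x arrays from 11.25 to 11.85 (median 11.65), so that every x array lay above every c array. The difference was 1.06 ± 0.08 (adjusted p = 6.0e-09), and 0.92 (adjusted p = 0.0311) with the beta-actin ratio as a covariate. Of 3 further probe sets of the gene, 1 gave 0.81 and the others -0.17 and -0.02. Slc2a3 was lower by -0.54 ± 0.14 in TH spleen (adjusted p = 0.00696, all 5 x arrays below the c mean), while in the remaining sets its differences lay between -0.25 and 0.36 and did not pass. On letter E, the LPS difference was 1.28 ± 0.16 log2 greater in blood than in spleen (adjusted p = 1.5e-05). Neutrophil markers were higher in LPS blood too, 13 of 15, with summed intensities of 10900 to 44800 in c and 18300 to 59000 in x, and their part was not tested.

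In TH blood 10 of 16 carriers of the sugar class were lower and 0 higher by limma (32.8% and 21.4% of all genes). At an unadjusted p under 0.05, 0 were higher, and the class median was -0.22 log2 against -0.05 for all genes. The class takes in family 5 whatever a member carries, and Slc5a3, Slc5a5 and Slc5a11 were among the lower ones. In the same arrays neutrophil markers were higher for 8 of 15 genes and lower for 2 (sums of 14800 to 42900 in c and 33500 to 83500 in x), erythroid markers lower for 3 of 8 (18500 to 27400 and 12600 to 20900) and platelet markers lower for 3 of 9 (16000 to 27100 and 14400 to 21000). Their part in the TH blood results was not tested, and with the beta-actin ratio as a covariate 0 carriers were called there, as given above. Slc50a1, a sugar efflux carrier, ran from 8.84 to 9.28 in c and 8.32 to 8.79 in x, a difference of -0.42 ± 0.06 (adjusted p = 2.4e-05). It was also lower in burn blood (-0.34 ± 0.08, adjusted p = 0.00351) and TH spleen (-0.31 ± 0.07, adjusted p = 0.00441). Slc37a2, a sugar phosphate exchanger of the endoplasmic reticulum, was lower in LPS blood (-0.27 ± 0.04, adjusted p = 1.5e-05), TH blood (-0.29 ± 0.04, adjusted p = 8.8e-06) and TH spleen (-0.55 ± 0.11, adjusted p = 0.00154). Each of these genes has a single probe set, and in the TH spleen arrays neither overlapped between codes. Slc5a9 was higher in burn blood (0.14 ± 0.04, adjusted p = 0.0194).

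The 2 carriers called higher in LPS spleen both move metals. Slc41a1, a magnesium carrier, ran from 7.20 to 7.64 log2 (median 7.31) in the 6 c arrays and from 8.38 to 8.63 (median 8.52) in the 6 x arrays. Its difference of 1.15 ± 0.08 (2.22-fold, adjusted p = 7.2e-06) was joined in TH spleen by 0.90 ± 0.13 (adjusted p = 7.3e-05), where the 5 x arrays read 8.52, 8.14, 8.91, 8.87 and 8.90 and the 6 c arrays lay between 7.66 and 7.90. The codes did not overlap in either set. In burn spleen the difference was 0.15 ± 0.11 and in the blood sets between -0.06 and 0.07, and these did not pass. In x minus c, burn and LPS spleen differed by -1.0 ± 0.16 (adjusted p = 2.1e-05), and blood and spleen in LPS, on letter E, by -1.06 ± 0.13 (adjusted p = 1.5e-05). Neutrophil markers were higher for 8 of 15 genes in LPS spleen (sums of 9730 to 20800 in c and 20500 to 29200 in x) and 7 of 15 in TH spleen (7620 to 15700 and 15400 to 23400), and their part was not tested.

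Slc39a1, the zinc uptake carrier ZIP1, moved in opposite directions in the blood of LPS and TH. In LPS blood it ran from 9.51 to 10.20 log2 (median 9.74) in c and from 8.96 to 9.49 (median 9.25) in x. In TH blood it ran from 8.47 to 9.31 (median 8.88) in c and from 9.60 to 10.17 (median 9.83) in x. Neither pair overlapped, and the differences were -0.51 ± 0.08 (adjusted p = 4.4e-05) and 0.97 ± 0.09 (adjusted p = 9.8e-08). The change between these differences was 1.49 ± 0.12 log2 (adjusted p = 2.4e-14). The TH blood difference also exceeded that of burn blood, which was 0.02, by 0.95 ± 0.13 (adjusted p = 1.9e-08). With the beta-actin ratio as a covariate the values were -1.01 in LPS blood (adjusted p = 0.0154) and 0.81 in TH blood (adjusted p = 0.113). In spleen Slc39a1 was higher in LPS (0.51 ± 0.06, adjusted p = 2.3e-04, no overlap) and TH (0.34 ± 0.09, adjusted p = 0.0117, 5 of 5 x arrays above the c mean), and its difference in burn was -0.02.

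The zinc efflux family Slc30 loads zinc into the Golgi apparatus and vesicles. Slc30a5 fell by 0.45 ± 0.06 in burn blood (adjusted p = 1.4e-05, 9 of 9 x arrays) and by 0.60 ± 0.11 in LPS blood (adjusted p = 2.3e-04, 10 of 10), and rose by 0.46 ± 0.11 in TH blood (adjusted p = 0.00134, 10 of 11). In TH spleen it was lower again (-0.30 ± 0.08, adjusted p = 0.0142). Slc30a6 was lower in burn blood (-0.25 ± 0.08, adjusted p = 0.0382), a call lost without any of 10 of the 20 arrays, c replicates 1 and 4 and x replicates 1, 3 and 4 of letter A, and c replicates 3 and 4 and x replicates 2, 3 and 5 of letter E (adjusted p from 0.0161 to 0.0915 over all 20), and higher in TH blood (0.33 ± 0.08, adjusted p = 0.00253). Slc30a7 ran from 8.49 to 9.44 log2 in c and 8.25 to 8.65 in x of LPS blood, a difference of -0.59 ± 0.08 (adjusted p = 1.7e-05). In burn blood it was 0.02, and the 2 models differed by 0.60 ± 0.10 (adjusted p = 4.1e-06). In spleen Slc30a4, a vesicle zinc carrier, was higher in burn (0.63 ± 0.15, adjusted p = 0.00712) and TH (0.47 ± 0.09, adjusted p = 8.1e-04), without overlap of the codes in either, and Slc30a9 was higher in burn spleen (0.32 ± 0.08, adjusted p = 0.0143). The heme carrier Slc48a1, which returns heme from lysosomes, was lower in TH blood (-0.63 ± 0.12, adjusted p = 2.6e-04, a further probe set -0.64), but its value was 0.15 with the beta-actin ratio as a covariate. Slc39a14, a zinc and iron carrier, was higher there by 0.28 ± 0.04 (adjusted p = 7.3e-06), against -0.20 in its other probe set. Over the class, 5 of 20 metal carriers were higher and 5 lower in TH blood (21.4% and 32.8% of all genes). In TH spleen 4 of 19 were higher and 2 lower (11.5% and 18.4% of all genes).

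**Figure D2:**
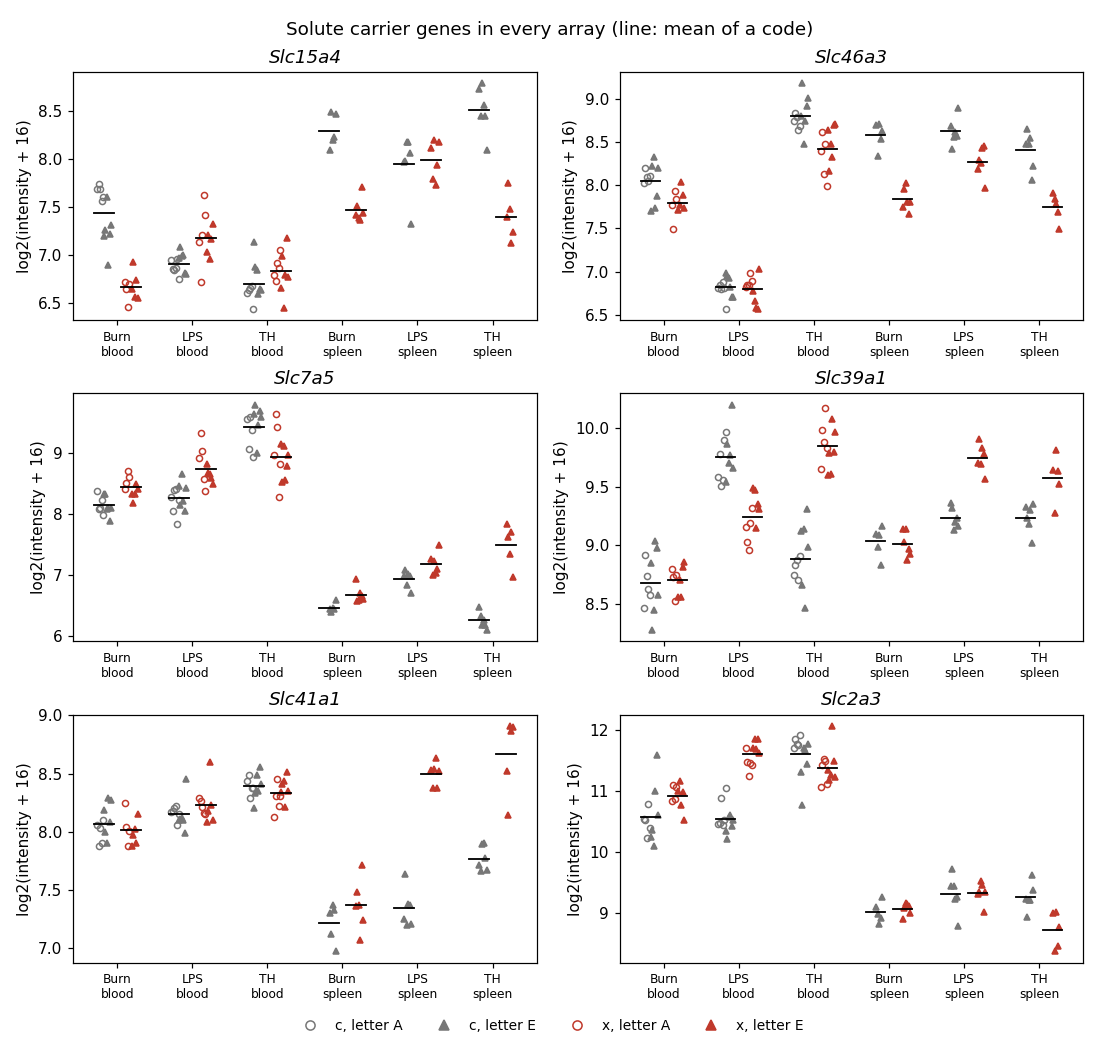
Log2(intensity + 16) of 6 carriers in every array (y axis), by set (x axis), with c arrays in grey, x arrays in red, letter A as open circles, letter E as triangles and a line at the mean of each code. Slc15a4 and Slc46a3 lie lower in x in burn and TH spleen, Slc41a1 lies higher in x in LPS and TH spleen, and Slc39a1 moves in opposite directions in LPS and TH blood, while levels of different sets are not comparable.

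Mitochondrial carriers of the Slc25 family were called for 19 of 27 genes in TH blood (54.2% of all genes), 10 of 27 in LPS blood (27.4%) and 4 of 27 in burn blood (19.2%). In spleen the counts were 7 of 28 in burn (19.03% of all genes), 7 of 28 in TH (29.95%) and 0 of 28 in LPS by limma (4.02%), where 2 passed an unadjusted p of 0.05. Slc25a37, mitoferrin 1, which imports iron for heme synthesis, had log2 levels of 10.36, 10.12, 10.07, 10.10 and 10.03 in c of burn spleen and from 9.15 to 9.47 (median 9.39) in x. It was lower by -0.77 ± 0.08 there (1.70-fold, adjusted p = 2.4e-06, no overlap) and by -0.58 ± 0.14 in TH spleen (adjusted p = 0.00652, 5 of 5 x arrays below the c mean). On letter E, x minus c in burn blood exceeded that in burn spleen by 0.85 ± 0.10 (adjusted p = 1.2e-05). Of 8 erythroid markers, 3 were lower and 0 higher in burn spleen, with sums of 1570 to 2170 in c and 1030 to 1520 in x. These 3 were Alas2 (-3.02 ± 0.15 log2, adjusted p = 1.5e-09), Hbb-b2 (-2.98 ± 0.19, adjusted p = 2.1e-08) and Klf1 (-0.57 ± 0.10, adjusted p = 0.00110). In TH spleen 1 was higher, with sums of 1390 to 2070 and 1640 to 2610. The part of erythroid cells in the Slc25a37 result was not tested.

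Slc25a22, which carries glutamate into mitochondria, was higher in TH spleen. Its 5 x arrays read 8.69, 7.86, 7.54, 8.18 and 8.08 log2, and its 6 c arrays ran from 6.97 to 7.32, without overlap. The difference was 0.92 ± 0.15 (1.90-fold, adjusted p = 2.9e-04), against -0.08 in burn spleen (change between them 1.0 ± 0.16, adjusted p = 6.8e-06) and -0.18 in TH blood on letter E (-0.21 over both letters, adjusted p = 0.00308; change -1.10 ± 0.18, adjusted p = 1.1e-04). In burn spleen Slc25a33, a pyrimidine nucleotide carrier, was higher by 0.59 ± 0.07 (adjusted p = 1.3e-05) and Slc25a53 by 0.60 ± 0.10 (adjusted p = 4.3e-04), both without overlap. In LPS spleen Slc25a33 stood at -0.08, and the change between the models was 0.68 ± 0.10 (adjusted p = 6.2e-06). For Slc25a53 the change in x minus c between burn blood and spleen on letter E was -0.64 ± 0.13 (adjusted p = 0.00424). In LPS blood Slc25a53 was lower (-0.24 ± 0.08, adjusted p = 0.0190).

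In TH blood 14 of 27 mitochondrial carriers were lower and 5 higher (32.8% and 21.4% of all genes), and the class median was -0.14 log2. The phosphate carrier Slc25a3 ran from 9.80 to 10.61 in c and 10.48 to 11.08 in x, a difference of 0.70 ± 0.09 (adjusted p = 2.5e-06, 11 of 11 x arrays above the c mean), against -0.29 ± 0.08 in LPS blood (adjusted p = 0.00661). Slc25a17, a peroxisomal member of the family, was lower by -0.64 ± 0.11 (adjusted p = 7.5e-05), against 0.14 in its other probe set, and higher in LPS blood (0.39 ± 0.11, adjusted p = 0.00878, other probe set -0.03). The adenine nucleotide carrier Slc25a5 was lower by -0.60 ± 0.10 (adjusted p = 3.6e-05), but its 7 further probe sets lay between 0.04 and 0.71, so its direction is uncertain, and near-identical copies can share its signal. In burn blood it was lower too (-0.27 ± 0.08, adjusted p = 0.0218, further probe sets from -0.36 to 0.03). Slc25a46, of the mitochondrial outer membrane, was higher in TH blood (0.46 ± 0.08, adjusted p = 6.4e-05) and lower in LPS blood (-0.36 ± 0.09, adjusted p = 0.00323). The oxoglutarate carrier Slc25a11 was higher in LPS blood (0.29 ± 0.05, adjusted p = 3.6e-04), and stood at -0.24 with the beta-actin ratio as a covariate. A second adenine nucleotide carrier, Slc25a4, was lower in burn blood (-0.44 ± 0.09, adjusted p = 9.4e-04) and TH spleen (-0.44 ± 0.08, adjusted p = 8.5e-04). Its burn blood call was lost in letter E alone, and that value ranged from -0.86 to -0.01 over the alternatives. Slc25a20, the carnitine and acylcarnitine carrier, was higher in burn blood, TH blood and burn spleen (0.40, 0.32 and 0.38) and lower in LPS blood (-0.38, against 0.21 in its other probe set). Slc25a36 followed the same order, at 0.30, 0.46, 0.32 and -0.40, with -0.11 in its other probe set in TH blood. The burn blood call of Slc25a20 was lost with its probe set of largest interquartile range.

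Among carriers of inorganic ions, Slc12a2, the sodium, potassium and chloride cotransporter NKCC1, was lower in 4 sets. Its differences were -0.45 ± 0.08 in LPS blood (adjusted p = 1.5e-04), -0.14 in TH blood, -0.64 ± 0.13 in LPS spleen (adjusted p = 0.00988) and -0.81 ± 0.10 in TH spleen (adjusted p = 2.8e-05). In both spleen sets the codes did not overlap, with levels from 8.19 to 8.57 log2 in c and 7.35 to 7.97 in x of TH spleen. In LPS blood 1 of its 2 further probe sets gave 0.27, and the value was -0.01 with the beta-actin ratio as a covariate. In LPS spleen these further probe sets gave -0.18 and -0.11. The anion exchanger Slc4a3 was higher in burn blood (0.24 ± 0.04, adjusted p = 1.0e-04, no overlap), the sulfate carrier Slc26a1 lower in TH blood (-0.61 ± 0.10, adjusted p = 2.7e-05, no overlap) and Slc9b1 higher in TH spleen (0.62 ± 0.11, adjusted p = 5.9e-04, further probe sets from -0.03 to 0.23). Slc9a8, a sodium-proton exchanger of the Golgi and endosomes, was higher in LPS blood (0.23 ± 0.04, adjusted p = 5.8e-04) and lower in TH blood (-0.38 ± 0.06, adjusted p = 6.4e-05). In spleen it was higher in burn (0.45 ± 0.12, adjusted p = 0.0172, but 0.0524 without c replicate 1) and TH (0.25 ± 0.09, adjusted p = 0.0456). The sulfate carrier Slc26a2 was higher in burn spleen (0.44 ± 0.12, adjusted p = 0.0179), a call lost without c replicate 1 (0.0529) or c replicate 5 (0.0525). That call was also lost with the gene's probe set of largest interquartile range. Slc9a3r1, named for the exchanger it binds, is a scaffold and no carrier. It was higher in burn blood (0.62 ± 0.12, adjusted p = 6.8e-04) and TH blood (0.55 ± 0.15, adjusted p = 0.00490) and lower in TH spleen (-0.38 ± 0.08, adjusted p = 0.00288). Its TH blood call was lost with the probe set of largest interquartile range.

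Among the vitamin and choline carriers, several moved in opposite directions in LPS and TH blood. Slc46a1, the proton-coupled folate carrier, ran from 6.49 to 7.26 log2 in c and 7.14 to 8.11 in x of LPS blood, and from 7.74 to 8.72 in c and 6.73 to 7.64 in x of TH blood. Its differences were 0.65 ± 0.10 (adjusted p = 6.1e-05) and -1.03 ± 0.13 (adjusted p = 2.0e-06), and the change between them was -1.68 ± 0.17 (adjusted p = 7.9e-12). Its other probe set gave -0.04 and 0.02. The choline-like carrier Slc44a2 moved the other way, by -0.57 ± 0.09 (adjusted p = 8.8e-05) and 0.82 ± 0.13 (adjusted p = 4.1e-05), but its further probe sets had the opposite sign in both sets (0.17 and 0.23, and -0.45 and -0.38). The ascorbate carrier Slc23a1 was higher in LPS blood (0.27 ± 0.04, adjusted p = 4.3e-05) and lower in TH blood (-0.37 ± 0.05, adjusted p = 7.4e-06), with 0.02 in its other probe set in each. A second ascorbate carrier, Slc23a2, was higher in burn blood (0.19 ± 0.04, adjusted p = 0.00123), where the codes did not overlap, and in burn spleen (0.23 ± 0.07, adjusted p = 0.0258, other probe set -0.04). Its burn blood call was lost with the probe set of largest interquartile range. The lysosomal nucleoside carrier Slc29a3 was lower in TH spleen (-0.40 ± 0.06, adjusted p = 3.0e-04, other probe set 0.04) and burn spleen (-0.21 ± 0.07, adjusted p = 0.0375, other probe set 0.00). The urea carrier Slc14a1 was higher in burn spleen without overlap (0.32 ± 0.08, adjusted p = 0.00802), against -0.21 in its other probe set.

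Among carriers of organic acids, Slc16a1, the lactate and pyruvate carrier MCT1, was higher in TH spleen (0.38 ± 0.09, adjusted p = 0.00417, c from 6.73 to 7.15 and x from 7.22 to 7.47 log2). Slc16a6, of the same family, was higher in LPS blood (0.36 ± 0.06, adjusted p = 1.7e-04) and burn spleen (0.31 ± 0.08, adjusted p = 0.0163). The partner protein Emb was higher in burn blood (1.21 ± 0.19, adjusted p = 9.6e-05), burn spleen (1.63 ± 0.13, adjusted p = 2.9e-07) and TH spleen (1.23 ± 0.13, adjusted p = 6.8e-06). It was not called in LPS blood (0.26 ± 0.15, adjusted p = 0.213) or LPS spleen (0.02 ± 0.07, adjusted p = 0.984). The partner Bsg was higher in burn spleen (0.41 ± 0.12, adjusted p = 0.0234). It was not called in burn blood (0.05 ± 0.09, adjusted p = 0.754) or LPS blood (0.03 ± 0.07, adjusted p = 0.821). Of the list of carriers and partners without an Slc name, which holds Emb and Bsg, 7 of 18 were higher and 1 lower in burn spleen, 6 and 7 of 19 in TH blood, and 3 and 4 of 18 in TH spleen. In burn blood, LPS blood and LPS spleen the counts were 1 and 2, 2 and 3, and 0 and 0. Slc22a8, an organic anion carrier known from kidney, was lower in burn spleen (-0.77 ± 0.14, adjusted p = 8.8e-04), against 0.14 in its other probe set. Slc13a2, a dicarboxylate carrier, was higher in TH spleen (0.32 ± 0.08, adjusted p = 0.00753), and Slc10a3 in LPS blood (0.27 ± 0.06, adjusted p = 0.00212). The fatty acid carrier Slc27a4 was higher in burn blood (0.43 ± 0.13, adjusted p = 0.0278), a call lost without x replicate 1 (0.0656) or 2 (0.0621) of letter A or x replicate 1 of letter E (0.0575). In TH blood the bile acid carrier Slc10a1 (-0.35 ± 0.08, adjusted p = 8.1e-04) and the organic cation carrier Slc22a2 (-0.22 ± 0.04, adjusted p = 1.9e-04) were lower.

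The Slc35 family, which carries nucleotide sugars and the sulfate donor into the Golgi apparatus, was grouped with the vesicle and lysosome carriers. Of these, 7 of 25 were lower and 1 higher in TH spleen (18.4% and 11.5% of all genes). Slc35c1, the GDP-fucose carrier needed for selectin ligands, was lower there (c from 7.63 to 7.91, x from 7.26 to 7.54 log2, difference -0.45 ± 0.07, adjusted p = 3.5e-04) and in burn blood (-0.28 ± 0.08, adjusted p = 0.0146), but higher in LPS blood (0.18 ± 0.06, adjusted p = 0.0204). Slc35f5 was the member that was higher, by 0.53 ± 0.10 (adjusted p = 9.1e-04). The sulfate donor carriers Slc35b2 and Slc35b3 were both lower in LPS blood (-0.38 ± 0.07 and -0.28 ± 0.06, adjusted p = 2.3e-04 and 0.00163), and Slc35b3 was higher in burn spleen (0.52 ± 0.08, adjusted p = 2.8e-04, no overlap). In TH blood Slc35b2 was lower (-0.27) and Slc35b3 higher (0.20). The vesicle monoamine carrier Slc18a1 (-0.35 ± 0.07, adjusted p = 1.6e-04) and Slc35c2 (-0.22 ± 0.05, adjusted p = 3.7e-04, further probe sets -0.04 and 0.31) were lower there.

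**Figure D3:**
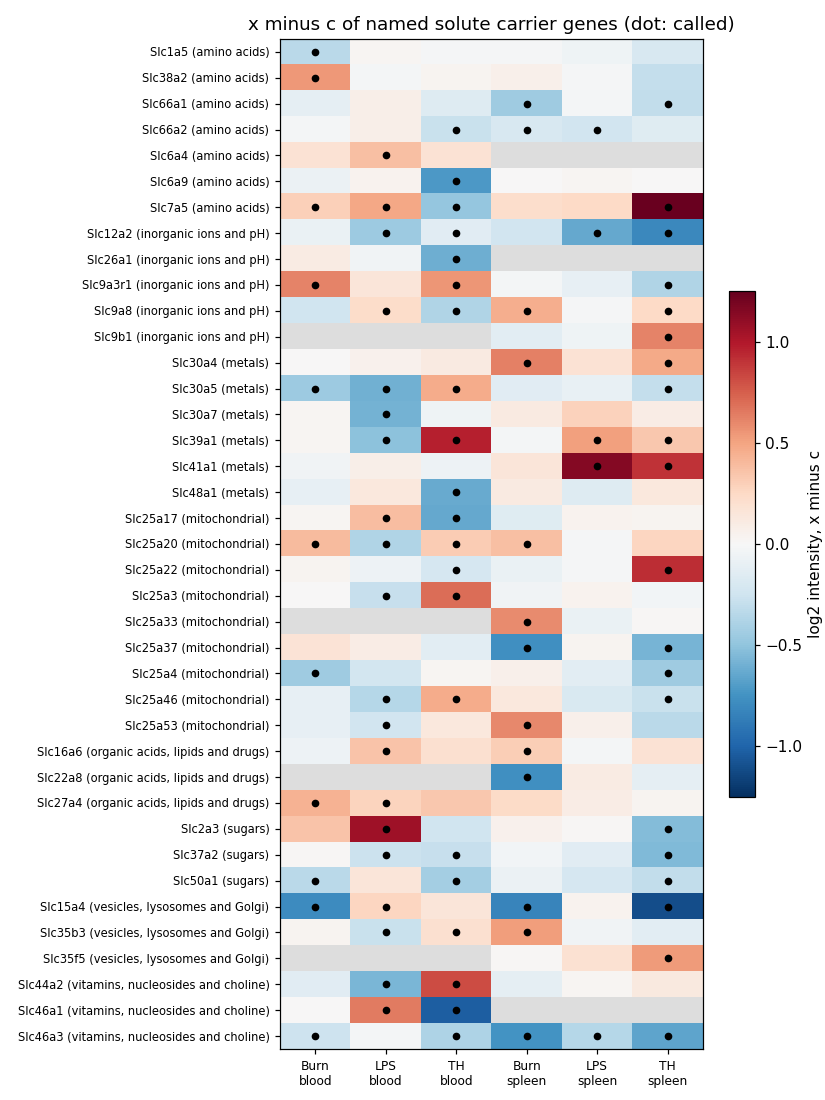
Heat map of x minus c in log2 intensity for the carriers named by the largest differences in a set, a difference between sets or the smallest p of a class (rows, with their class in brackets) in the 6 sets (columns). Red is higher and blue lower in x, black dots mark an adjusted p under 0.05 and grey marks genes below the level threshold. Slc46a3 is blue with a dot in 5 columns, and Slc7a5 is deepest red in TH spleen.

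LPS blood and TH blood were compared across all carriers, a pair chosen because it had the most called differences, which favours opposite directions. Of the 46 carriers called in LPS blood, 27 were also called in TH blood (58.7%, against 58.1% of genes called in LPS blood). These are 27 of the 97 called in TH blood (27.8%, against 29.4% of genes). Of these 27, 24 had opposite directions, 12 higher in LPS and lower in TH and 12 the reverse, and of the 1633 genes called in both 64.2% did. This is a description, and the 2 shares were not compared by a test. The carriers Slc12a2, Slc35b2 and Slc37a2 were lower in both. The sets share no arrays. The beta-actin ratio was lower in x in both, without overlap of the codes, so code and ratio cannot be told apart in these sets. The covariate fits above show how the counts moved with it, and a kept or lost call does not separate ratio from code. With that covariate Slc2a3, Slc39a1, Slc30a7, Slc7a5, Slc3a1, Slc23a1 and Slc9a8 were called in LPS blood. The calls of Slc44a2 (-0.80, adjusted p = 0.0947), Slc30a5 (-0.81, 0.143), Slc35b2 (-0.52, 0.126) and Slc35b3 (-0.33, 0.303) were lost while the differences were at least as large as without it. The same held for Slc25a17 (0.83, 0.121) and Slc25a46 (-0.71, 0.101). Smaller differences, not called, were left for Slc46a1 (0.42, adjusted p = 0.426), Slc10a3 (0.23, 0.469), Slc37a2 (-0.15, 0.411), Slc16a6 (0.10, 0.770), Slc12a2 (-0.01, 0.980) and Slc6a4 (-0.03, 0.964). Slc25a11 turned its sign and was not called (-0.24, 0.240). The test of the difference itself called 85 of 182 carriers between TH and LPS blood (49.4% of all genes), 79 between TH and burn blood (45.2%) and 38 between burn and LPS blood (21.4%). In spleen it called 36 of 166 between TH and burn (25.5% of genes), 16 between burn and LPS (10.4%) and 10 between TH and LPS (13.4%). Between blood and spleen, on letter E, it called 37 of 143 carriers in TH (27.05% of genes), 9 in LPS (10.3%) and 6 in burn (3.57%).

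**Figure D4:**
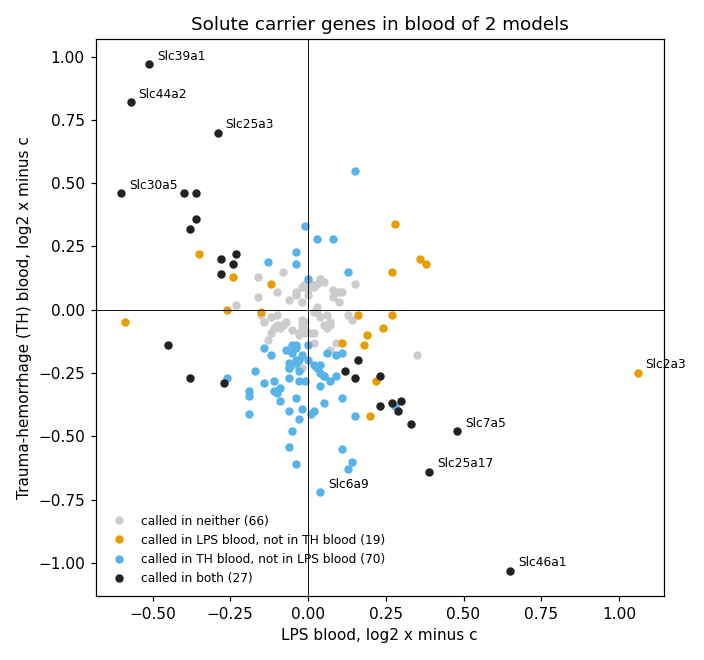
Each point is 1 of the 182 carriers measured in blood, with its x minus c in log2 intensity in LPS blood (x axis) and in TH blood (y axis), coloured by the sets in which it was called. Of the 27 black points called in both sets, 24 lie in the upper left or lower right, with Slc39a1 and Slc46a1 at the far ends.

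Letters E and A, injury or infusion against sham, were compared in blood as an average over both codes. In burn, LPS and TH blood limma called 0 of 182 carriers, and 6, 6 and 18 passed an unadjusted p of 0.05 (3.30%, 3.30% and 9.89%). Over all 10247 genes the counts called were 0, 0 and 3 (0.0293%), and 537, 566 and 1074 passed unadjusted. The median difference of the carriers was 0.00, -0.02 and -0.02 log2. When all blood groups were fitted together, or when c replicate 6 of letter E was left out, 6 carriers were called in TH blood, all lower in E.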

How the data were processed

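The deposited values are 1 linear intensity per probe set and array on a mouse Affymetrix array of 22690 probe sets. No source used here gives the authors' scaling or summary method. All arrays of a set share a lowest value (9.68 to 32.5, depending on the set), which 4.02% to 7.43% of probe sets take. The 64 control probe sets were left out. The deposited intensities were turned into log2(value + 16), quantile normalized within a tissue and reduced to the probe set of highest mean for each symbol. Genes with a mean above the 30th percentile were tested with limma 3.58.1 (R 4.3.3), with 1 term per group of arrays, an eBayes trend and Benjamini-Hochberg adjustment over 10247 genes, two-sided. Blood differences were averaged over the letters. Models and tissues were compared by contrasts of these differences (8748 genes between tissues, letter E alone). Errors are SE, and precision is limited by how many arrays a group has. The fit was tested on simulated data. The carriers, lists and motifs were chosen with earlier results of these data known. Genes named are up to 5 of largest called difference per direction and set and, by smallest p, 2 per contrast and up to 2 per class and set. Their other calls, and Slc25a36, Slc12a8 and Slc22a19, were added after their values were seen. Alternatives covered the pseudocount, scaling, level filter, choice of probe set, array weights, robust variance, letters, runs of title numbers, the beta-actin ratio and each array left out.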

Additional observations from a re-analysis of the deposited data

Results flagged for a closer look

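Of 312 groups of 4 to 6 arrays examined for the named carriers, 18 held an array far from the others (chance flags about 1 in 20 groups). In burn blood these were Slc9a3r1 at 9.31 log2 in c replicate 4 of letter A (others 9.09 to 9.13), Slc1a5 at 7.91 in x replicate 1 of letter A (8.43 to 8.48), and Slc23a2 at 8.03 in x replicate 1 of letter E (7.82 to 7.88). Slc4a3 stood at 6.63 in c replicate 4 of letter A (6.86 to 6.94) and at 7.27 in x replicate 4 of letter E (7.10 to 7.14). In LPS blood, x replicate 5 of letter E was high for the zinc carrier Slc30a5 at 8.40 (7.51 to 7.74) and for Slc35b3 at 7.90 (7.33 to 7.46). There, x replicate 2 of letter A was low for Slc44a2 at 8.47 (9.07 to 9.23) and for the mitochondrial outer membrane protein Slc25a46 at 7.44 (8.13 to 8.34). Also in LPS blood, Slc16a6 was 7.14 in c replicate 5 of letter E (6.79 to 6.91) and Slc35b2 was 9.51 in c replicate 4 of letter A (9.05 to 9.22). In TH blood they were Slc9a3r1 at 8.39 in c replicate 3 of letter A (8.91 to 9.10), Slc50a1 at 8.32 in x replicate 4 of letter A (8.62 to 8.68) and Slc35c2 at 7.65 in c replicate 1 of letter E (7.89 to 7.99). In burn spleen, mitoferrin Slc25a37 was 10.36 in c replicate 1 (10.03 to 10.12) and 9.15 in x replicate 1 (9.37 to 9.47), and Slc16a6 was 8.13 in x replicate 5 (8.34 to 8.45). In TH spleen, Slc35f5 was 7.65 in c replicate 4 (7.87 to 8.0).

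The differences between x and c differed between models or tissues by limma's test of that contrast. In blood 38 of 182 carriers were called between burn and LPS (20.9%, against 21.4% of all genes). Between TH and LPS 85 were called (46.7%, against 49.4%), and between TH and burn 79 (43.4%, against 45.2%). In spleen the counts were 16, 10 and 36, and between blood and spleen 6 in burn, 9 in LPS and 37 in TH. The 2 carriers of smallest p per contrast are given here, and they are not always those of largest difference. In blood they were -1.06 for Slc15a4 and 0.60 for Slc30a7 (burn minus LPS), 1.49 for Slc39a1 and -1.68 for Slc46a1 (TH minus LPS), and 0.94 for Slc15a4 and 0.95 for Slc39a1 (TH minus burn). In spleen they were 0.68 for Slc25a33 and -1.0 for Slc41a1 (burn minus LPS), 0.99 for Slc7a5 and -1.16 for Slc15a4 (TH minus LPS), and 1.02 for Slc7a5 and 1.0 for Slc25a22 (TH minus burn). For blood minus spleen they were 0.85 for Slc25a37 and -0.64 for Slc25a53 in burn, -1.06 for Slc41a1 and 1.28 for Slc2a3 in LPS, and -1.91 for Slc7a5 and -1.10 for Slc25a22 in TH. These values carry adjusted p from 2.4e-14 to 0.00424.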

How the results depend on the processing

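Of 115 named values, 55 kept direction and side of the threshold in all alternatives, and of 1512 alternatives other than leaving out an array, 90 lost the call and 11 turned the sign. Of 216 recomputed counts, 201 stayed within 1.5 times the reported one. With array weights 35 carriers were called in burn blood, and 15 and 29 between blood and spleen in burn and LPS. Median scaling and the values as deposited each gave 2 between blood and spleen in burn, and genes above the 50th percentile gave 22 in TH and 1 for E against A in TH blood, where a fit of all groups gave 6. Letter E alone called 3 in burn, 18 in LPS and 45 in TH blood, and letter A alone 16 in LPS blood. With the beta-actin ratio the counts were 28 in LPS and 0 in TH blood, and the probe set of largest interquartile range gave 2 in LPS spleen. That choice of probe set turned Slc25a17 (-0.03) and Slc44a2 (0.23) in LPS blood, Slc44a2 (-0.38), Slc25a17 (0.14), Slc39a14 (-0.20) and Slc25a5 (0.15) in TH blood, Slc14a1 (-0.21) in burn spleen and Slc29a3 (0.04) in TH spleen. The beta-actin ratio turned Slc6a4 (-0.03) and Slc25a11 (-0.24) in LPS blood and Slc48a1 (0.15) in TH blood, and the cause was not tested. Leaving out each array gave 18 to 27 calls in burn blood, 43 to 54 in LPS blood, 91 to 106 in TH blood, 17 to 38 in burn spleen (38 without c replicate 4), 3 to 5 in LPS spleen (3 without c replicates 3, 4 or 5 or x replicates 1, 2, 3 or 6), 35 to 40 in TH spleen, and 0 to 6 for E against A in TH blood (6 without c replicate 6 of letter E). No paired analysis was possible because the labels give array numbers and no replicate numbers, and the replicate numbers used here only follow accession order, so they pair no arrays. With runs of title numbers as a block, 21, 49 and 99 carriers were called in burn, LPS and TH blood and 4 in LPS spleen, where Slc46a3 lost its call (adjusted p = 0.0509). The lowest deposited value of each set and the number of arrays limit what can be seen at low levels.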
